A study of Mus musculus with 12 samples.

Results

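Expression of 9 STAT and IRF transcription factors was examined in the mouse retina after an acute rise of intraocular pressure (IOP). The genes were Stat2, Stat3, Stat5a, Stat6, Irf1, Irf5, Irf7, Irf8 and Irf9, which are 9 of the 24340 genes in the table of values. They were chosen by name with earlier results of these data known, so their direction here is not independent evidence. In each of 6 adult p16-3MR mice, aged 12 to 16 weeks, 1 eye was held at 85 to 90 mm Hg for 60 minutes and the other eye was left at normal pressure as the control. Mice 1, 2 and 5 received ganciclovir (GCV, 25 mg/kg) daily for 3 days, mice 3, 4 and 6 were mock treated, and both retinas of each mouse were then sequenced as separate libraries. This gave 4 groups of 3 libraries, namely control (ctrl) and IOP retinas of mock mice and control (ctrl_GCV) and IOP (IOP_GCV) retinas of GCV mice. All mice, controls included, carried the p16-3MR transgene, which places a fusion of Renilla luciferase, red fluorescent protein and viral thymidine kinase under the regulatory region of p16. The kinase turns GCV into a toxin, so cells in which that region is active can be killed. The model is an acute pressure load that can also interrupt retinal blood flow, and each value comes from a whole retina. Fewer cells of a type and less RNA per cell therefore cannot be told apart.

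STAT proteins wait in the cytoplasm until a Janus kinase, bound to a cytokine receptor, phosphorylates them, and they then enter the nucleus as dimers. Interferons and cytokines of the interleukin-6 family are the best known triggers, and in the retina STAT3 is known for its part in the response of Müller glia and astrocytes to injury. IRF proteins are partners and targets of the same system: IRF9 joins STAT2 in the complex ISGF3, which drives antiviral genes, whereas IRF1, IRF5, IRF7 and IRF8 act in interferon induction, antigen presentation and myeloid cells. Genes of the family are themselves interferon and cytokine targets.

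In the mm10 assembly (GENCODE M21) Stat2 lies at chr10:128270559-128292849 on the plus strand and Stat6 on the same chromosome at chr10:127642986-127660957, also plus. Stat5a at chr11:100859351-100885169 (plus) and Stat3 at chr11:100885098-100939540 (minus) are neighbours whose ends overlap by 72 bases on opposite strands, and Irf1 lies on the same chromosome at chr11:53770014-53778374 (plus). Irf5 lies at chr6:29526625-29541871 (plus), Irf7 at chr7:141262706-141266481 (minus), Irf8 at chr8:120736358-120756694 (plus) and Irf9 at chr14:55603571-55610030 (plus). Irf9 shares 123 bases with Rnf31 on the same strand, and Irf8 shares 20337 bases with the annotated gene Gm20388 on the same strand. On the opposite strand, Irf5 overlaps Tnpo3 by 1045 bases, Irf1 overlaps Gm17334 by 907, Irf7 overlaps Phrf1 by 45 and Stat6 overlaps Nab2 by 40. How reads in such overlaps were assigned was not tested.

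The binding sites of the family have known letters, so the 250 bases before each RefSeq transcription start (GRCm38.p6) were searched on both strands. The interferon-stimulated response element, bound by ISGF3 and IRFs, was searched as GAAANNGAAA, which reads TTTCNNTTTC on the other strand. The gamma-activated sequence, bound by STAT dimers, was searched as TTCNNNGAA, the same on both strands. Of 32851 such windows in the genome, 2.98% held the first and 7.02% the second. Among the members, Stat2 held the first, at 222 to 213 bases before its start. Irf1 held the second at 90 to 82 bases before 1 of its 2 starts, and Irf8 held it at 171 to 163 and at 153 to 145 bases before 1 of its 2 starts. The windows of the other 6 members held neither string. The 3 windows with a match are shown because their genes are the members that carry the letters of their own family's sites, with the matches in capitals. They lie at chr10:128270248-128270497 (Stat2), chr11:53769764-53770013 (Irf1) and chr8:120736108-120736357 (Irf8), all on the plus strand and written 5′ to 3′. A match is a string of letters and not a measured binding site.
Stat2: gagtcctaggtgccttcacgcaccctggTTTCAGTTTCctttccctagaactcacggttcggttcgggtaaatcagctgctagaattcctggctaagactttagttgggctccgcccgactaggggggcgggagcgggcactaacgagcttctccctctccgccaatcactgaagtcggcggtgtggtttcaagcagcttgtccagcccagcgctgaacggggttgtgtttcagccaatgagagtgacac
Irf1: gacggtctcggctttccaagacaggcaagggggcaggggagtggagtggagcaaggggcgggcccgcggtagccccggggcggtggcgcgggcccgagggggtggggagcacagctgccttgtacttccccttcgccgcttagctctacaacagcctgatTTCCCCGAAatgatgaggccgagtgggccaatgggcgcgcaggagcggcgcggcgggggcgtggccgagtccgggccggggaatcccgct
Irf8: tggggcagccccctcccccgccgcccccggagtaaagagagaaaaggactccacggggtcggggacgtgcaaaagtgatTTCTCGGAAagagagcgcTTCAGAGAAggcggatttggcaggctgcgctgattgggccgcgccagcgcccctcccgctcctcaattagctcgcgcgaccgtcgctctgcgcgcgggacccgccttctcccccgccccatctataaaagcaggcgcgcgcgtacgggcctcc

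Depth was estimated at 4020000 fragments in the IOP retina of mouse 6 and at 6780000 to 8800000 in the other 11 libraries. That library also had the fewest genes above 0, 14844, against 16044 to 16593 in the others. Rod genes, summed over Sag, Gnat1, Pde6b and 4 others, reached 22386 to 31282 FPKM (fragments scaled to transcript length and library depth) in control and 18576 to 29884 in IOP retinas, with 0 of the 7 called, so the markers of the labelled tissue were present in every library. Lens genes, summed over 8 markers, ranged from 68.8 to 7757 FPKM in control and from 282 to 7188 in IOP retinas. Their sum was higher in the IOP eye of 5 of 6 pairs. Of the 8, 5 were called higher over all mice, beside 6.76% of all genes. Of the members, Stat2, Stat3, Irf7 and Irf9 rested on more than 100 estimated fragments in every library, while Irf5 went down to 4.04, Irf8 to 9.75 and Stat5a to 14.6 fragments.

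Of the 9 factors, 7 were higher in IOP retinas than in control retinas. Averaged over the 6 mice, Stat2, Stat3, Irf1, Irf5, Irf7, Irf8 and Irf9 were higher in IOP retinas by 1.28 to 2.65 on the log2(FPKM + 1) scale, and Stat5a and Stat6 did not pass the test. The test was limma over all 18509 genes above 0 in any library, and a gene was called at a Benjamini-Hochberg adjusted p under 0.05. In this comparison 12.2% of all genes were called and 6.76% were called higher. The median difference of the 9 members was 1.77, against 0.00892 over all genes tested. With both eyes of a mouse treated as a block, 7 members were again called higher, beside 4.83% of all genes. For each of these 7 the lowest IOP retina lay above the highest control retina, a separation that 5.47% of all genes showed, and each was higher in the IOP eye of all 6 mice, as were 10.7% of all genes.

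**Figure D1:**
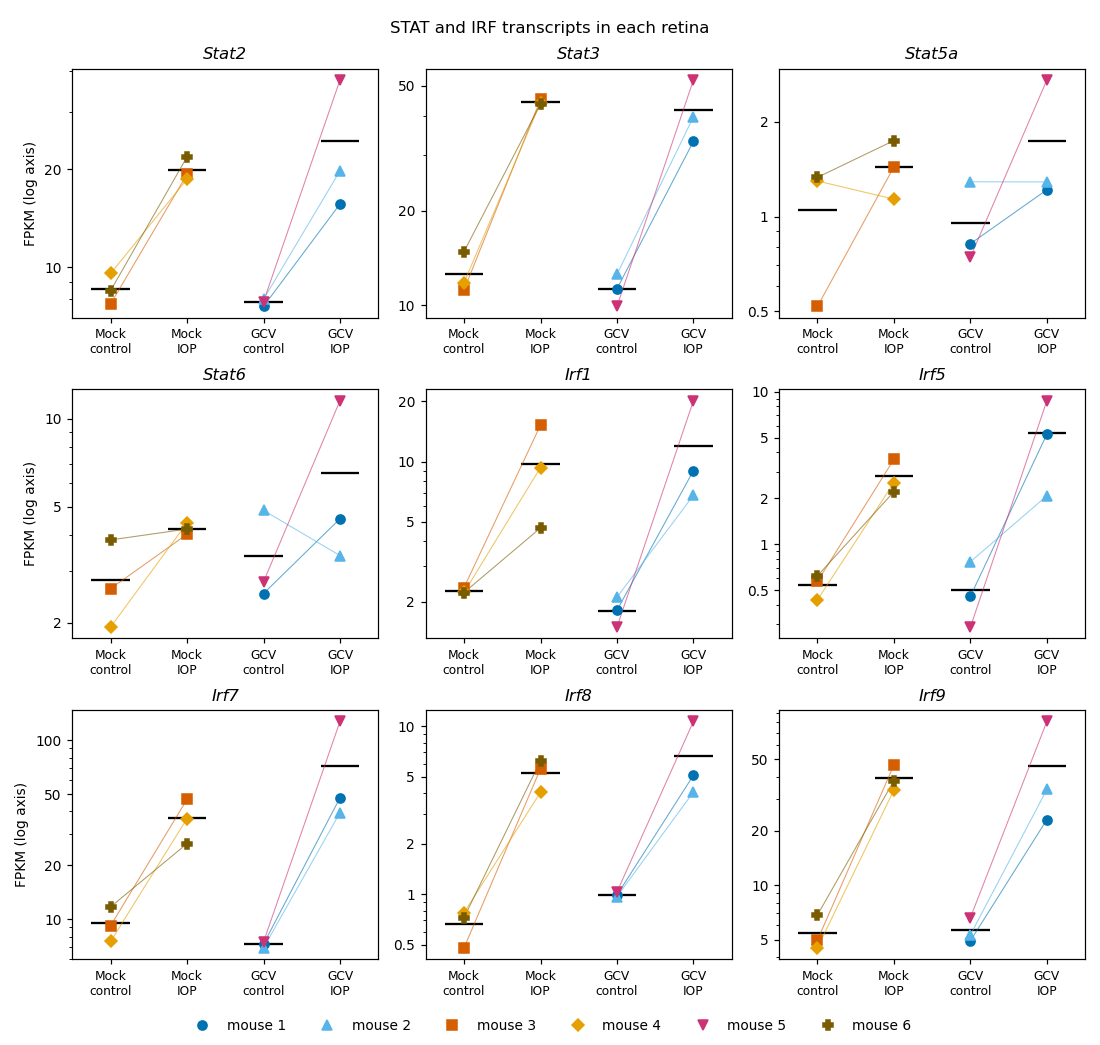
FPKM (log axis) of each of the 9 genes in each retina, with control and IOP retinas of mock and GCV mice on the x axis, 1 symbol and colour per mouse, thin lines joining the 2 eyes of a mouse and black bars at the mean of 3 retinas. For 7 genes every IOP retina sits above every control retina, for Stat5a and Stat6 the 2 sets overlap, and the IOP retina of mouse 5 is the highest point for all 9.

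Stat3, the STAT activated by the interleukin-6 family, was the most abundant member in control retinas. It was measured at 11.2, 11.8 and 14.8 FPKM in the control eyes of mock mice 3, 4 and 6, and at 11.3, 12.5 and 9.91 FPKM in those of GCV mice 1, 2 and 5. In the IOP eyes it reached 45.2, 44.2 and 43.7 FPKM in mock mice and 33.2, 39.8 and 52.1 FPKM in GCV mice. All IOP retinas were high and the sets lay far apart. The averaged log2 difference was 1.77 (SE 0.11, adjusted p = 0.000106), and within eye pairs it ran from 1.48 in mouse 1 to 2.28 in mouse 5. Stat3 was called in mock mice (1.75, SE 0.16, adjusted p = 0.00343) and in GCV mice (1.79, SE 0.16, adjusted p = 0.00256), in each of these also with the mouse block (adjusted p = 0.0327 and 0.0258).

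Stat2, the STAT of the ISGF3 complex and the member with the match to the interferon element shown above, was lower than Stat3 in every library. The control eyes of mice 3, 4 and 6 gave 7.72, 9.58 and 8.48 FPKM, and those of mice 1, 2 and 5 gave 7.59, 7.98 and 7.85. The IOP eyes gave 19.3, 18.7 and 21.9 FPKM in mock mice and 15.7, 19.8 and 37.7 in GCV mice. The mouse 5 retina stood out above the other 5 IOP retinas, and none of these overlapped the controls. Over all mice the log2 difference was 1.28 (SE 0.18, adjusted p = 0.00215). It was called in GCV mice (1.43, SE 0.25, adjusted p = 0.0179), where the block gave an adjusted p of 0.0586, and it missed the threshold in mock mice (1.13, SE 0.25, adjusted p = 0.0542).

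Stat5a and Stat6 were the weakly expressed STAT members. Stat5a, which acts after receptors such as those for prolactin and GM-CSF, was at 0.518, 1.297 and 1.33 FPKM in the control eyes of mice 3, 4 and 6 and at 0.820, 1.29 and 0.743 in those of mice 1, 2 and 5. Its IOP eyes gave 1.44, 1.14 and 1.74 FPKM in mock and 1.22, 1.29 and 2.72 in GCV mice, which overlapped the controls. The averaged log2 difference was 0.37 (95% interval -0.01 to 0.74, adjusted p = 0.178), and 4 of 6 pairs were higher in the IOP eye. Stat6, the STAT of interleukin-4 and interleukin-13 signalling, gave 2.61, 1.93 and 3.84 FPKM in the control eyes of mice 3, 4 and 6 and 2.51, 4.85 and 2.76 in those of mice 1, 2 and 5. Its IOP eyes gave 4.02, 4.39 and 4.19 FPKM in mock mice and 4.54, 3.39 and 11.5 in GCV mice. The value of 11.5 in mouse 5 was far above the other IOP retinas, and in mouse 2 the order of the eyes was turned, at 4.85 in the control and 3.39 in the IOP eye. The log2 difference was 0.57 (95% interval -0.00101 to 1.15, adjusted p = 0.166), with 5 of 6 pairs higher in the IOP eye, and it was 0.35 without the IOP retina of mouse 5. Differences of up to 0.74 for Stat5a and 1.15 for Stat6 were thus within these intervals.

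Irf9, the DNA-binding subunit of ISGF3, had the largest difference among the members. The control eyes of mice 3, 4 and 6 held 4.96, 4.501 and 6.84 FPKM, and those of mice 1, 2 and 5 held 4.93, 5.31 and 6.62. The IOP eyes held 46.4, 33.7 and 38.0 FPKM in mock mice and 23.1, 34.0 and 80.8 in GCV mice. Even the lowest IOP retina, that of mouse 1, lay well above the highest control. The averaged difference on the log2(FPKM + 1) scale was 2.65 (SE 0.26, adjusted p = 0.000417), larger than that of 99.5% of genes. It was 2.65 (SE 0.36, adjusted p = 0.0113) in mock mice and 2.64 (SE 0.36, adjusted p = 0.0076) in GCV mice, and both calls held with the mouse block (adjusted p = 0.0327 and 0.026).

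Irf7, which drives the interferon alpha genes, had the second largest difference with a pseudocount of 1 FPKM. With 0.1 FPKM, which compresses low genes less, Irf8 (2.66) and Irf5 (2.59) exceeded the 2.504 of Irf7. Control eyes held 9.20, 7.51 and 11.7 FPKM in mice 3, 4 and 6 and 7.27, 6.93 and 7.48 in mice 1, 2 and 5. In the IOP eyes it rose to 46.8, 36.5 and 26.5 FPKM in mock mice and to 47.7, 39.4 and 127 in GCV mice. The IOP retina of mouse 5 stood apart, and the shallow library of mouse 6 was the lowest of the IOP retinas. The averaged log2 difference was 2.38 (SE 0.26, adjusted p = 0.000833). In GCV mice it was 2.94 (SE 0.37, adjusted p = 0.0059, with the block 0.0343), and in mock mice 1.83 (SE 0.37, adjusted p = 0.042, with the block 0.0996).

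Irf1, an early interferon gamma target, was even across control eyes and uneven across IOP eyes. The window before 1 of its 2 starts matched the letters of the gamma-activated sequence. Mice 3, 4 and 6 had 2.36, 2.23 and 2.22 FPKM in the control eye, and mice 1, 2 and 5 had 1.81, 2.11 and 1.496. The IOP eyes had 15.2, 9.34 and 4.67 FPKM in mock and 9.02, 6.79 and 20.1 in GCV mice. The sets did not overlap, and the lowest IOP eye, that of mouse 6 at 4.67 FPKM, lay above the highest control at 2.36. The log2 difference over all mice was 1.83 (SE 0.29, adjusted p = 0.00423). It was called in GCV mice (2.08, SE 0.40, adjusted p = 0.0311, with the block 0.0924) and not in mock mice (1.59, SE 0.40, adjusted p = 0.0911).

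Irf5 and Irf8, factors of myeloid cells, were the least abundant members in control retinas. Irf8, which microglia and macrophages need for their development, was at 0.480, 0.778 and 0.727 FPKM in the control eyes of mice 3, 4 and 6 and at 0.989, 0.969 and 1.03 in those of mice 1, 2 and 5. Its IOP eyes were at 5.60, 4.05 and 6.24 FPKM in mock mice and 5.12, 4.07 and 10.7 in GCV mice. No IOP retina came near the controls. The log2 difference was 1.87 over all mice (SE 0.20, adjusted p = 0.000631), 1.91 in mock mice (SE 0.28, adjusted p = 0.0128, with the block 0.0559) and 1.84 in GCV mice (SE 0.28, adjusted p = 0.0119, with the block 0.0504). Irf5, which acts after Toll-like receptors and MyD88, was at 0.572, 0.434 and 0.623 FPKM in control eyes of mice 3, 4 and 6 and at 0.458, 0.770 and 0.288 in those of mice 1, 2 and 5. Its IOP eyes were at 3.61, 2.54 and 2.21 FPKM in mock mice and at 5.27, 2.08 and 8.73 in GCV mice. These 2 sets were also apart, but the control values rest on as few as 4.04 estimated fragments. Its log2 difference was 1.61 over all mice (SE 0.24, adjusted p = 0.0036). In GCV mice it was 1.94 (SE 0.35, adjusted p = 0.0213, with the block 0.0952) and in mock mice 1.28 (SE 0.35, adjusted p = 0.111). As a difference on the log2(FPKM + 1) scale, each of these understates the ratio of a low gene.

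Markers of other cells moved with these factors. Over all mice, 12.2% of all genes were called and 6.76% were called higher (4.83% with the block). The 12 microglial markers summed to 73.6 to 118 FPKM in control and 283 to 597 in IOP retinas, with 9 called higher (8 with the mouse block), among them Cx3cr1, Aif1 and C1qa, and 1, Siglech, called lower. Markers of infiltrating myeloid cells (8 genes, 7 called higher, among them Ccr2, Lyz2 and S100a8) summed to 10.5 to 49.985 FPKM in control and 183 to 2550 in IOP retinas, with the highest sum in the IOP eye of mouse 5. Reactive glia markers (Gfap, Serpina3n, Lcn2, Cd44, Edn2 and Nes, all 6 called higher, 5 with the block) summed to 34.4 to 144 and 463 to 1316 FPKM. Lymphocyte markers were low, at sums of 0.0375 to 0.584 and 0.573 to 1.70 FPKM, with 1 of 8 (Nkg7) called higher and 0 with the block. Their sum was higher in the IOP eye of each mouse, by 0.60 (mouse 4) to 0.93 (mouse 5) on the log2(FPKM + 1) scale. None of the 5 endothelial, 6 pigment epithelial and 5 blood markers was called, and of 7 Müller glia markers 2 (Apoe and Vim) were called higher and 2 (Rlbp1 and Glul) lower, against 1 and 1 with the block. Markers of retinal ganglion cells, summed over 8 genes, went from 888 to 1797 FPKM in control to 213 to 983 in IOP retinas, with 6 called lower and 1 with the block. The summed microglial level changed by 1.62 (mouse 2) to 2.62 (mouse 3) on the log2 scale within eye pairs, and Irf8 by 1.36 (mouse 2) to 2.53 (mouse 5). Adding 1 FPKM lowers the difference of Irf8, which is near 1 FPKM in control retinas, more than that of the marker sum. As a ratio of FPKM between eyes, without that addition, the microglial sum ran from 3.09 (mouse 2) to 6.21 (mouse 3) and Irf8 from 4.20 (mouse 2) to 11.7 (mouse 3). The ratio of Irf8 was above that of the microglial sum in each mouse except mouse 1 (5.18 against 6.11). The infiltrating myeloid sum ran from 13.3 (mouse 2) to 66.0 (mouse 5) as a ratio, above Irf8 in each mouse. The part of these cells, and of lens tissue, in the differences of the 9 factors was not tested.

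**Figure D2:**
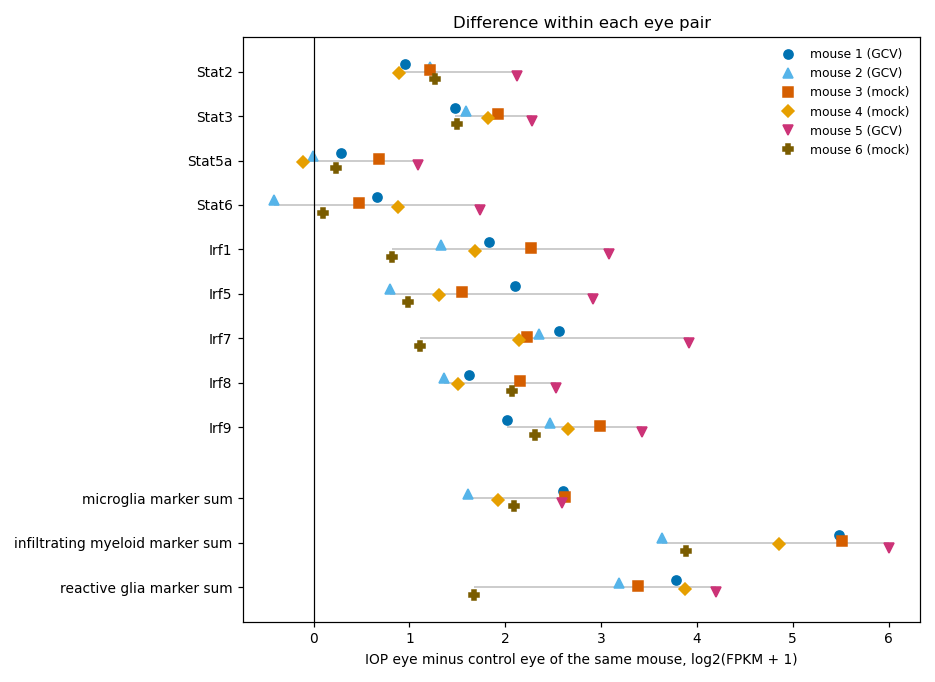
Difference in log2(FPKM + 1) between the IOP eye and the control eye of each mouse for the 9 genes, and below them the same difference for the summed markers of microglia, infiltrating myeloid cells and reactive glia, with 1 symbol per mouse and grey lines from the lowest to the highest pair. Mouse 5 has the largest difference for all 9 genes, and negative differences occur for Stat5a (mice 2 and 4) and Stat6 (mouse 2).

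The eye pairs differed in size of response. On the log2(FPKM + 1) scale mouse 5 (GCV) had the largest difference for every member, reaching 3.92 for Irf7, 3.42 for Irf9, 3.08 for Irf1 and 2.92 for Irf5. Mouse 6 (mock, with the shallow IOP library) had the smallest for Irf1 (0.81) and Irf7 (1.11), while for Irf8 it gave 2.07, close to the 2.16 of mouse 3. Mouse 2 (GCV) had the smallest for Irf5 (0.80), Irf8 (1.36) and Stat6 (-0.41). On this scale Stat3 ran from 1.48 to 2.28 across mice and Irf7 from 1.11 to 3.92. As a ratio of FPKM between the eyes of a mouse, Stat3 ran from 2.95 to 5.26, Irf7 from 2.26 to 17.0 and Irf5 from 2.70 to 30.3. On that ratio Irf8 was highest in mouse 3 (11.7), with 10.4 in mouse 5. Marker sums that also rose most in mouse 5 were those of infiltrating myeloid cells (6.01 on the log2 scale), reactive glia (4.20), pigment epithelium (1.95) and lymphocytes (0.93). The summed microglial markers changed by 2.59 in mouse 5, 2.60 in mouse 1 and 2.62 in mouse 3. The lens sum rose most in mouse 4 (5.57).

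FPKM values are per length, so levels can be ordered between genes. In control retinas the means over 6 libraries ran from Stat3 (11.9 ± 1.66 FPKM, SD, n = 6) through Irf7 (8.35 ± 1.83), Stat2 (8.20 ± 0.741), Irf9 (5.53 ± 0.971), Stat6 (3.09 ± 1.07), Irf1 (2.04 ± 0.322), Stat5a (1.00 ± 0.350) and Irf8 (0.829 ± 0.211) to Irf5 (0.524 ± 0.168). Ranges of neighbours in that order overlapped except between Stat2 and Irf9 and between Irf1 and Stat5a. In IOP retinas the order was Irf7 (54.0 ± 36.8 FPKM, SD, n = 6), Stat3 (43.0 ± 6.26), Irf9 (42.7 ± 20.2), Stat2 (22.2 ± 7.86), Irf1 (10.9 ± 5.75), Irf8 (5.96 ± 2.48), Stat6 (5.35 ± 3.06), Irf5 (4.07 ± 2.57) and Stat5a (1.59 ± 0.594), and the ranges of all neighbours overlapped. The place of Irf7 rested on the IOP retina of mouse 5, at 127 FPKM: without that mouse Stat3 came first (41.2 ± 4.92 FPKM, SD, n = 5), before Irf7 (39.4 ± 8.65) and Irf9 (35.04 ± 8.43). In mock IOP retinas alone the order was Stat3 (44.4 ± 0.760 FPKM, SD, n = 3), Irf9 (39.4 ± 6.47) and Irf7 (36.6 ± 10.2). Of the summed FPKM of the 4 STAT members, Stat3 made up 46.6 to 52.0% in control and 50.1 to 64.6% in IOP retinas. Of the summed IRF members, Irf7 made up 43.1 to 53.0% and 34.1 to 52.9%, and Irf9 28.2 to 39.1% and 25.6 to 49.0%. Stat6 made up 7.85 to 18.2% of the STAT sum in control and 5.28 to 11.1% in IOP retinas, and Stat5a 2.35 to 5.28% and 1.66 to 2.62%.

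Within mock mice alone 4 of the 9 members were called, Stat3, Irf7, Irf8 and Irf9, beside 1.65% of all genes called and 1.42% called higher. The median of the 9 log2 differences was 1.59. With the mouse block the count was 2 (Stat3 and Irf9), beside 0.389% of all genes called higher. The count depended on single libraries: it was 1 when the control retina of mouse 3 or of mouse 4 was left out, and 7 without the IOP_GCV retina of mouse 5, which enters through the shared estimate of spread. Within GCV mice 7 members were called, the same 7 as over all mice, beside 1.8% of all genes called and 1.65% called higher, and their median was 1.84. With only the 2 GCV groups in the fit the count was 1. The block count was 3 (Stat3, Irf7 and Irf9), beside 0.751% of all genes called higher. It was also 3 without the control retina of mouse 1, of mouse 2 or of mouse 5. For fits with a library left out or with only the groups compared, the share of all genes called was not computed. Those member counts therefore cannot be set beside it. At an unadjusted p under 0.05, 7 members were higher in each of the 2 sets of mice, beside 18.9% of all genes passing (9.49% higher) in mock and 19.2% (10% higher) in GCV mice.

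Whether GCV changed these responses was asked by the difference between the 2 IOP effects. By limma, 0 of 9 members and 0% of genes were called, while 0 members and 358 genes had an unadjusted p under 0.05. For Irf7 the effect was larger in GCV mice by 1.12 (95% interval -0.06 to 2.29, unadjusted p = 0.0605, adjusted p = 0.997), and without the IOP retina of mouse 5 this was 0.61. Irf5 (0.66, interval -0.43 to 1.75) and Irf1 (0.49, interval -0.78 to 1.76) followed, and without that retina they were 0.28 and 0.0716. Stat3 gave 0.04 (interval -0.47 to 0.54), Irf8 -0.07 (interval -0.95 to 0.80) and Irf9 -0.02 (interval -1.16 to 1.12). The intervals leave room for changes of more than 1 log2 unit for Irf7, Irf5, Irf1, Irf9, Stat6 and Stat2. For Stat3 the interval is the narrowest of the 9.

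**Figure D3:**
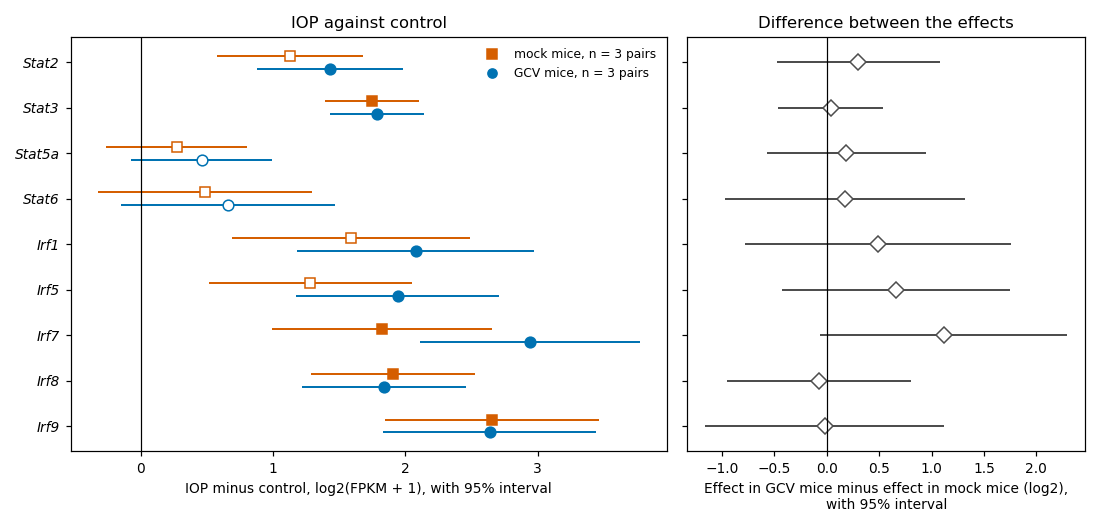
Left, difference between IOP and control retinas in log2(FPKM + 1) for mock mice (orange squares) and GCV mice (blue circles), with 95% intervals from limma and filled symbols at an adjusted p under 0.05. Right, the GCV effect minus the mock effect with its 95% interval; the intervals of all 9 genes include 0.

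Comparing GCV with mock mice directly gave 0 called members in IOP retinas and 0 in control retinas, with 0% of all genes called in either, 774 and 295 genes at an unadjusted p under 0.05 and 0 members among them. In IOP retinas the largest difference was that of Irf7, 0.79 (95% interval -0.04 to 1.62), with group means of 36.6 ± 10.2 FPKM in mock and 71.5 ± 48.6 in GCV mice (SD, n = 3). Without the IOP retina of mouse 5 it was 0.28. Irf5 differed by 0.61 (interval -0.15 to 1.38, and 0.23 without that retina) and Stat3 by -0.11 (interval -0.47 to 0.25). In control retinas the differences lay between -0.33 (Irf7, interval -1.16 to 0.50, and -0.18 without the control retina of mouse 6) and 0.27 (Irf8, interval -0.35 to 0.89). GCV and mock mice are different animals, so these comparisons could not be blocked by mouse.

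Of 8 other genes analysed here (Stat4, Stat5b, Irf2, Irf3, Irf4 and the binding partners Irf2bp1, Irf2bp2 and Irf2bpl), 0 were called higher by limma, 1 lower and 7 neither over all mice, with a median log2 difference of 0.12. In that comparison 12.2% of all genes were called and 6.76% were called higher. Without the IOP retina of mouse 4 or that of mouse 1, 1 of the 8 was called higher. At an unadjusted p under 0.05, 2 of the 8 were higher, Stat4 and Irf3, beside 30.3% of all genes passing and 14.2% higher. Stat5b fell from 9.21 to 12.0 FPKM to 2.99 to 9.58, a difference of -0.69 (SE 0.18, adjusted p = 0.0395). It was lower in the IOP eye of 6 of 6 pairs, as were 10.1% of all genes, and Irf2, Irf3 and Irf2bp2 were higher in 6 of 6, as were 10.7% of all genes. With the mouse block the adjusted p of Stat5b was 0.0515. The paralogs Stat5a and Stat5b are close in sequence, so reads may have been divided between them. Irf2bp1, the most abundant of the binding partners, was at 24.0 ± 2.25 FPKM in control and 23.1 ± 6.54 in IOP retinas (SD, n = 6). Irf3, which is activated after viral sensing without needing new synthesis, gave a difference of 0.23 (SE 0.08, adjusted p = 0.0876). Irf2 gave 0.50 (SE 0.26, adjusted p = 0.227). It was 54.6 FPKM in the shallow IOP library of mouse 6 and at most 23.0 in the other IOP retinas, and without that library the difference was 0.22.

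Upstream of the STAT proteins, the changes were uneven. Over all mice, 12.2% of all genes were called and 6.76% were called higher (4.83% with the block), with a median difference of 0.00892. Of the Janus kinases, Jak3 rose from 0.227 to 0.584 FPKM to 2.35 to 5.56 (log2 difference 1.74, SE 0.17, adjusted p = 0.000498). Jak1 fell by 0.24 (SE 0.06, adjusted p = 0.0243, with the block 0.0604), and Jak2 differed by 0.30 (SE 0.12, adjusted p = 0.109). Of 13 cytokine ligands above 0, 3 were called higher and 0 lower: Cntf, from 3.59 to 5.96 FPKM to 8.30 to 16.2 (1.40, SE 0.16, adjusted p = 0.000848), Csf1 (1.06, SE 0.20, adjusted p = 0.0122) and Lif (0.63, SE 0.15, adjusted p = 0.0242). The interferon gene Ifng, and also Ifna4 and Il13, were at 0 in all 12 libraries. Of 22 receptors, 11 were called higher (9 with the block) and 1, Cntfr, lower, with a median difference of 0.69. Il6st, the shared chain of the interleukin-6 family receptors, rose from 17.2 to 19.2 FPKM to 23.3 to 39.6 (0.77, SE 0.11, adjusted p = 0.00278). Osmr, its oncostatin M partner, rose by more (1.56, SE 0.14, adjusted p = 0.000295), and Ifngr1, a chain of the interferon gamma receptor, differed by 0.15 (SE 0.08, adjusted p = 0.238). Leaving out the control retina of mouse 1, 3, 5 or 6 gave 6 receptors called higher, that of mouse 2 or 4 gave 5, and the IOP retina of mouse 3 gave 7.

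Of 17 inhibitors, 5 (Socs3, Ptpn1, Ptpn2, Ptpn6 and Usp18) were called higher and 0 lower, with a median difference of 0.02. Over all genes, 6.76% were called higher, and 4.83% with the mouse block. Socs3, which blocks the receptor chain that activates STAT3, went from 1.48 to 3.27 FPKM in control to 12.5 to 45.1 in IOP retinas (2.79, SE 0.27, adjusted p = 0.000417). Ptpn2, a phosphatase of STAT3 among others, rose by 1.05 (SE 0.19, adjusted p = 0.00865). It was 133 FPKM in the shallow IOP library of mouse 6 and 43.8 to 69.6 in the other IOP retinas. Pias3, a STAT3 inhibitor, differed by -0.24 (SE 0.13, adjusted p = 0.243) and by -0.14 without the IOP retina of mouse 5. Among 14 adaptors, sensors and kinases that activate IRF proteins, 6 (Tmem173, Ticam1, Myd88, Irak4, Tlr7 and Tlr9) were called higher and 0 lower, with a median of 0.57. Tmem173, which encodes STING, rose from 0.217 to 1.12 FPKM to 1.22 to 3.95 (1.23, SE 0.19, adjusted p = 0.00425). Tbk1, the kinase of IRF3 and IRF7, differed by 0.23 (SE 0.10, adjusted p = 0.146) and the adaptor Mavs by 0.28 (SE 0.09, adjusted p = 0.0601). This count was 3 with the mouse block, 3 without the control retina of mouse 1, 2, 3 or 6, and 2 without that of mouse 4.

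The called genes among known targets of the factors were all higher. These lists were also chosen with earlier results of these data known, so their counts are not independent evidence of a direction. Over all genes, 6.76% were called higher and the median difference was 0.00892. Of 16 STAT3 targets, a list that holds Stat3 itself and shares Socs3 and Osmr with the lists above, 14 were called higher and 0 lower, with a median difference of 2.72. Lcn2 went from 9.58 to 23.8 FPKM to 90.2 to 646 (3.63, SE 0.42, adjusted p = 0.000959), and Hif1a, the most abundant of the list, differed by 0.24 (SE 0.14, adjusted p = 0.265) and by 0.11 without the shallow IOP library of mouse 6. Of 25 ISGF3 targets, a list that shares Usp18 with the inhibitors, 24 were called higher and 0 lower, with a median of 1.28. The exception was Cmpk2. Oasl2 rose from 4.69 to 6.18 FPKM to 30.5 to 69.1 (2.71, SE 0.19, adjusted p = 0.000131) and Ifit3 from 6.50 to 10.3 FPKM to 17.4 to 78.0 (2.20, SE 0.27, adjusted p = 0.00127). Of 21 interferon gamma and IRF1 targets, 20 were called higher and 0 lower, with a median of 1.81, and the exception was Cxcl9. In that list B2m, the light chain of MHC class I, went from 81.2 to 165 FPKM to 427 to 2448, Cd74, the invariant chain of class II, from 1.49 to 20.0 to 67.1 to 176, and Psmb8, an immunoproteasome subunit, from 2.58 to 4.27 to 16.4 to 36.03. The B2m value of 2448 was in the shallow IOP library of mouse 6, and the next highest was 1315 in mouse 5. With the mouse block the 3 counts were 13, 22 and 16, beside 4.83% of all genes called higher. Gfap, Serpina3n and Lcn2 of the STAT3 list are also glial markers, and Cd74 and B2m are abundant in the immune cells whose markers rose.

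**Figure D4:**
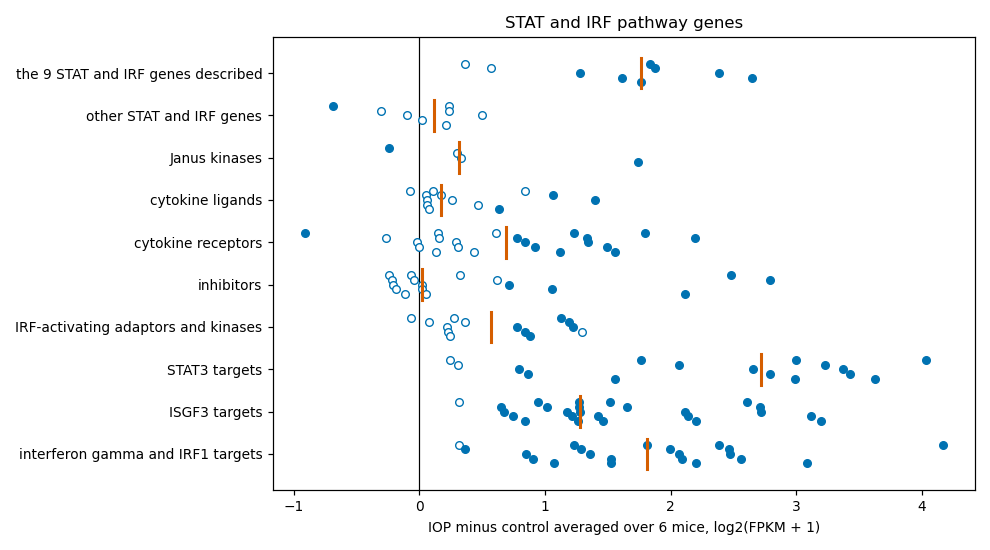
Difference between IOP and control retinas averaged over 6 mice, in log2(FPKM + 1), for the 9 genes and for each gene of the other lists, with filled circles for genes at an adjusted p under 0.05 and an orange bar at each list's median. The medians of the 3 target lists are 2.72, 1.28 and 1.81, that of the 9 genes is 1.77, and that of the inhibitors is 0.02; vertical offsets within a list only separate the points.

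The genes whose levels followed each factor most closely over the 12 libraries were found by Pearson's r of log2(FPKM + 1) among genes that averaged 1 FPKM or more. For Stat3 they were Gadd45b (r = 0.989) and Rfx2 (0.989), and for Stat2 they were Arid5a (0.984) and Parp12 (0.983). For Irf9 they were Cd47 (0.992) and Crym (0.990), for Irf7 Tnfrsf1a (0.987) and Tap1 (0.987), and for Irf1 the interferon-inducible GTPases Igtp (0.986) and Irgm1 (0.985). Irf8 was closest to the MHC class I gene H2-D1 (0.991) and to Anxa3 (0.989), and Irf5 to Rhog (0.984) and Ms4a6b (0.984). The 2 factors that did not pass the test had looser neighbours, Klf11 (0.916) and Ttc13 (0.911) for Stat5a and Sgpl1 (0.931) and Tes (0.930) for Stat6. For the 7 raised factors the libraries fell into 2 separate sets, IOP and control, and these r values describe that split as well as the spread within it.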

How the data were processed

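Poly(A) RNA of 12 mouse retinas was sequenced by the authors as stranded libraries (2 × 50 bases). They counted reads on exons of RefSeq genes with HOMER, and the submitters' processing notes also name TopHat2, Bowtie2, Cufflinks, Cuffdiff and mm10. The deposited values were taken as FPKM. The unit is not given in the sources used here and was inferred: times transcript length, less 170 bases, in 1713 genes with 1 transcript of 1500 bases or more, 82.9 to 87.6% of the low values lay within 0.15 of a whole number of fragments. The depth behind each library is that estimate, so no counting interval was computed. The table held 24340 genes, 18509 of them above 0 in at least 1 library; 27 names had been turned into dates and 2 symbols occur more than once. Which scaling the authors applied between libraries is also not given, and 0 library pairs were identical.

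The log2(FPKM + 1) values were fitted with limma 3.58.1 (R 4.3.3, Python 3.11.15), with 4 group means, a variance trend and Benjamini-Hochberg adjustment over all 18509 genes. The methods describe no block for these libraries, and Cuffdiff is listed without its role, so the fit without a block is given first and the blocked one beside it. The fit was tested on simulated data for the IOP comparison in mock mice, over 18509 genes: it called 52 of 100 genes changed by 1 log2 unit, 84 of 100 changed by 2, and 9 unchanged genes. Eyes with the same mouse number come from the same animal, and the number in the labels was used as a block in an alternative. Deviations of the eyes of a mouse from their group means correlated between -0.117 (mouse 1) and 0.388 (mouse 4). The GCV comparisons differ between animals and have no blocked fit.

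All 9 factors are described. From each pathway list the 2 most abundant genes and the one with the smallest p over all mice are named, with the 2 genes closest to each factor. Other genes of the lists, such as those called, Lif and Irf2, were named after their values were seen. The factors and the lists were chosen with earlier results of these data known, so neither is independent evidence of a direction. A few genes of these families and markers are in no list here and are not reported; listed genes that are not named enter the counts only. Alternatives were a pseudocount of 0.1 FPKM, a filter of 1 FPKM in 3 libraries, quantile normalization, no variance trend, only the groups compared, the block, each library left out and, chosen after seeing the data, median-ratio scaling and the list counts under every alternative. Promoter windows are from RefSeq (GRCm38.p6); all 9 factors matched by symbol.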

Additional observations from a re-analysis of the deposited data

How the results depend on the processing

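Over all mice, 7 of 9 factors were called under each alternative run, the leaving out of any library included, and all 162 recomputed log2 differences kept their direction and side of the threshold. The 2 counts within a treatment were less firm. In mock mice the 4 called factors became 2 with the mouse as replicate block, 7 at an unadjusted p under 0.05 (beside 18.9% of all genes in either direction), and 1 to 7 with 1 library left out (1 without the control retina of mouse 3 or 4, 7 without the IOP_GCV retina of mouse 5). In GCV mice the 7 became 1 with only the groups compared, 3 with the mouse as replicate block, and 3 to 7 with 1 library left out (3 without a control retina of mouse 1, 2 or 5). The block changed no other count of factors. The cause was not tested. The share of all genes called was not computed for fits with a library left out or with only the groups compared.

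None of the 9 differences between the IOP effects was called under any alternative, and with 1 library left out several changed sign: Stat2 ran from -0.0487 to 0.56, Stat3 from -0.13 to 0.19, Stat5a from -0.0532 to 0.39, Stat6 from -0.27 to 0.48, Irf8 from -0.43 to 0.17 and Irf9 from -0.51 to 0.37, with the lowest value of each without the IOP_GCV retina of mouse 5. Irf1, Irf5 and Irf7 kept their sign, with lowest values of 0.0716, 0.28 and 0.61 without the same retina. Irf9 was 0.0292 after quantile normalization. The difference of Stat3 between GCV and mock IOP retinas ran from -0.28 to 0.0373. Of the 162 recomputed counts of called genes in the pathway lists, 16 moved by over 1.5 times. Control values of Irf5, Irf8 and Stat5a rest on few fragments, and each treatment had 3 mice.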
